A study of Caenorhabditis elegans with 32 samples.

Results

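The 9 heat shock genes of Caenorhabditis elegans described here are the small heat shock protein genes hsp-16.1, hsp-16.2, hsp-16.41, hsp-16.48, hsp-12.6, hsp-17 and hsp-43, the inducible chaperone gene hsp-70, and hsf-1, which encodes the heat shock transcription factor. The 9 genes were taken by their symbols from the deposited table of 46904 genes. All 9 passed the filter on low counts. hsp-12.6 passed only through groups in which it was high and so had to differ from the others: it is counted among the calls as a description, and no p-value is given for it. Small heat shock proteins bind unfolding proteins and hold them in a state from which other chaperones can refold them, without using ATP. HSP70 proteins bind and release clients in cycles driven by ATP. HSF-1 binds heat shock elements in promoters and, after heat or other protein damage, activates the hsp-16 genes and hsp-70, which unstressed worms express at low levels.

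Poly(A) RNA of whole worms was measured in 32 libraries that form 16 groups of 2. The groups are hrde-1 hypoxia, hrde-1 normoxia, WT hypoxia and WT normoxia, each sampled in 4 generations from P0 to F3. HRDE-1 is a nuclear Argonaute protein of the germline that takes part in inherited RNA silencing, and the labels give no allele for the mutant. Per the labels, hypoxia was 16 h at 0.1% oxygen and 20 °C from the L4 stage, followed by ambient oxygen of about 20%. They do not say whether F1 to F3 worms were exposed themselves, so in those generations hypoxia names the group. The labels name no separate cultures for the 2 libraries of a group, so the spread behind each p-value may be technical. With 2 libraries per group, groups often do not overlap even without a difference. Non-overlap is therefore only a description, and its share over all genes was not counted.

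Library totals ran from 9722580 to 16555982 estimated counts. The 2 F2 WT normoxia columns are not plain libraries: each is a mean of 3 values, and 2 of these are the WT normoxia values of F1 and F3 with the same replicate number. Tests therefore came from 1 fit of the other 30 libraries, and values that need F2 WT normoxia are given as deposited and, where it matters, for the remainder (3 times the column minus the other 2), which is an inference from the values. The P0 WT normoxia libraries stood apart from the P0 WT hypoxia libraries in marker lists: oocyte and eggshell markers summed to 17352 to 18614 CPM under hypoxia, against 4814 to 7046 CPM under normoxia, and cuticle and molting markers to 414 to 514 CPM, against 1518 to 2009 CPM. CPM, counts scaled to a common effective library size (TMM), can be compared between libraries. In whole worms, fewer cells of a type and less RNA per cell cannot be told apart. The hrde-1 transcript itself lay at 345 to 613.6 CPM in hrde-1 libraries and at 219.5 to 865.5 CPM in WT libraries, and without an allele these levels do not check the labels.

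In WBcel235 coordinates, hsp-16.2 (chromosome V, 1804334 to 1804957, minus strand) and hsp-16.41 (chromosome V, 1805178 to 1805875, plus strand) lie head to head with 220 bp between them. The other pair, hsp-16.1 (chromosome V, 9087293 to 9087782, minus strand) and hsp-16.48 (chromosome V, 9088131 to 9088617, plus strand), has 348 bp between its genes. This pair is present a second time next to it, as hsp-16.11 and hsp-16.49. The values of hsp-16.48 and hsp-16.49 were equal within 0.01 in 32 of 32 libraries, and those of hsp-16.1 were not whole numbers in 31 of 32, so reads were shared between the copies and the level of each copy is uncertain. The other genes are hsp-12.6 (chromosome IV, 9446229 to 9447228, minus strand), hsp-17 (chromosome V, 8384799 to 8385929, minus strand), hsp-43 (chromosome X, 6233151 to 6235543, minus strand), hsp-70 (chromosome I, 9320325 to 9322519, minus strand) and hsf-1 (chromosome I, 11953507 to 11963085, minus strand). On the opposite strand, hsp-17 shares 73 exonic bp with F52E1.14, and the counting is not stated to use strand. F52E1.14 was not called in the comparisons in which hsp-17 rose in WT hypoxia (log2 fold change 0.27 in F1, adjusted p = 0.554, and 0.21 in F3, adjusted p = 0.601, edgeR). In WT normoxia, F52E1.14 had 118 and 155.8 CPM in P0, 28.6 and 42.2 CPM in F1, and 55.3 and 42.85 CPM in F3 libraries. hsp-17 fell between the same generations. In the hrde-1 groups and WT hypoxia, F52E1.14 means were also lower in F1 to F3 than in P0, while those of hsp-17 were higher. The part of shared reads was not tested.

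Per kilobase of exon, the median group level was highest for hsp-16.41 (307 CPM per kb), followed by hsp-16.2 (231.1), hsp-16.1 (223.3), hsp-16.48 (175.7), hsp-17 (131.8), hsp-70 (113.5), hsf-1 (38.7), hsp-43 (30.8) and hsp-12.6 (0.130). The genes fell into a variable and a steady set. Group means of hsp-17 ran from 10.81 CPM (F3 WT normoxia) to 239.7 CPM (F2 WT hypoxia), a ratio of 22.2, and those of hsp-70 from 42.4 CPM (F3 hrde-1 hypoxia) to 756.7 CPM (F1 WT normoxia), a ratio of 17.8. The 4 hsp-16 genes spanned ratios of 10.1 to 13.9. In contrast, group means of hsp-43 lay between 27.1 and 55.05 CPM (ratio 2.04) and those of hsf-1 between 79.1 and 137.3 CPM (ratio 1.74). When the 15 groups were put in order of their means, most neighbours overlapped: only 2 of 14 neighbouring groups were apart for hsp-70 and hsp-43, 3 for hsp-16.1, hsp-16.2 and hsf-1, 4 for hsp-16.41, hsp-16.48 and hsp-12.6, and 5 for hsp-17.

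**Figure D1:**
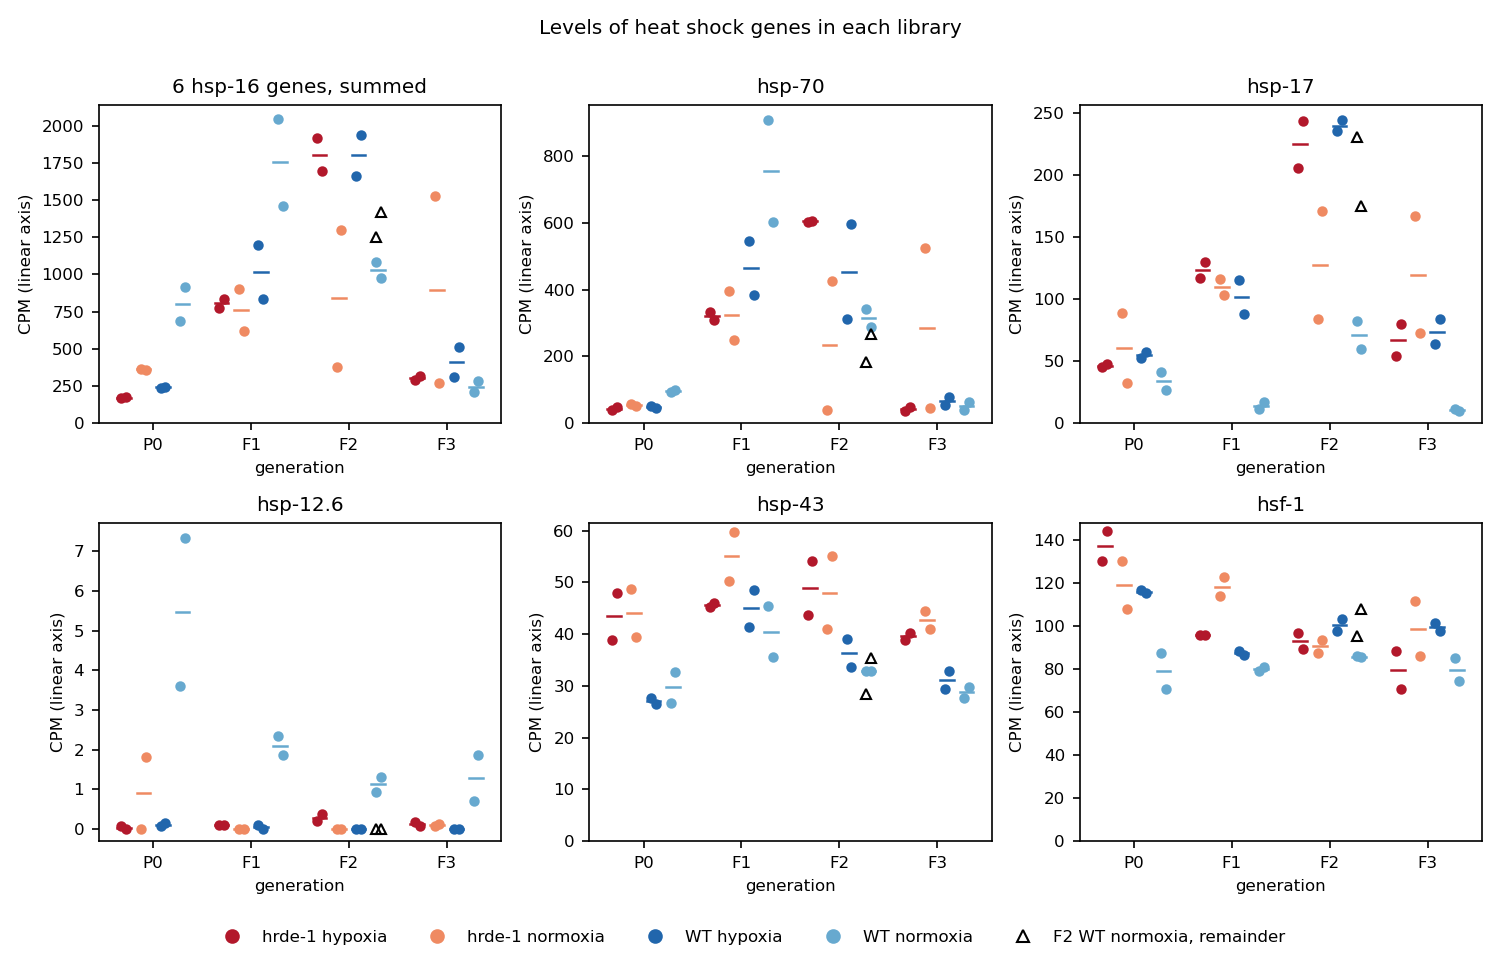
CPM on linear axes in each library (points) with group means (short lines), by generation, for the 6 hsp-16 genes summed, hsp-70, hsp-17, hsp-12.6, hsp-43 and hsf-1, with the F2 WT normoxia remainder as open triangles. For hsp-70, every F1 library lies above every P0 library, and F3 hrde-1 normoxia replicate 1 stands apart from the other F3 libraries for hsp-70 and the hsp-16 sum, while group means of hsp-43 and hsf-1 stay within ratios of 2.04 and 1.74.

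Of the 9 genes, 5 were called for hypoxia against normoxia in P0 WT (edgeR quasi-likelihood test, adjusted p under 0.05), hsf-1 higher and hsp-16.1, hsp-16.2, hsp-16.41 and hsp-12.6 lower. In that comparison 41.9% of all 15536 tested genes were called, so the share of members is near the background. The median log2 fold change was -1.54 over the members and -0.14 over all tested genes. In F1 WT, 2 members were called (hsp-17 higher, hsp-12.6 lower), against 13.9% of all genes, and in F3 WT the same genes in the same directions, against 6.62% of all genes. Between WT hypoxia and the F2 WT normoxia columns as deposited, hsp-17 was again called higher and hsp-12.6 lower (7.97% of all genes called), and neither was called with the remainder.

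In hrde-1, edgeR called 0 of the 9 genes for hypoxia in P0, F1, F2 and F3. At an unadjusted p under 0.05 there were 3, 1, 3 and 7 members in these generations, DESeq2 called 0 in each, and edgeR called 5.84%, 8.35%, 0% and 0.0129% of all genes. The 0 of F3 rests on 1 library. Without F3 hrde-1 normoxia replicate 2, 7 members were called lower in hypoxia, and 6.18% of all genes were called lower in that fit. It sets the hypoxia libraries against F3 hrde-1 normoxia replicate 1 alone, which had the highest hsp-16 and hsp-70 levels of F3 and is assumed to vary like the other groups. Without P0 hrde-1 normoxia replicate 1, 1 member (hsp-12.6) was called in P0, with 19.5% of all genes called.

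Between strains under normoxia, 3 members were called in P0 (hsp-43 and hsf-1 higher and hsp-16.41 lower in hrde-1; 22.5% of all genes), 3 in F1 (hsp-17 and hsf-1 higher, hsp-12.6 lower; 34.5%) and 4 in F3 (hsp-16.2, hsp-16.41, hsp-17 and hsp-43 higher; 8.86%). Against the F2 WT normoxia columns as deposited, hsp-12.6 was called lower in F2 hrde-1 (6.06% of all genes called), and with the remainder no member was. On the average of these 3 generations hsp-17, hsp-43 and hsf-1 were higher and hsp-12.6 lower in hrde-1 (42.4% of all genes called). Tissue markers differed between the same normoxia libraries. Oocyte and eggshell sums were 10439 to 17342 CPM in hrde-1, against 4814 to 7046 CPM in WT libraries in P0, 22390 to 22411 CPM, against 10940 to 12666 CPM in F1, and 12666 to 20364 CPM, against 11291 to 13602 CPM in F3. Vitellogenin sums were 63355 to 75953 CPM in hrde-1, against 42056 to 48681 CPM in WT libraries in P0, 169768 to 177560 CPM, against 68871 to 93115 CPM in F1, and 122463 to 179572 CPM, against 83064 to 108528 CPM in F3. The part of tissue makeup in the strain differences under normoxia was not tested.

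Between strains under hypoxia, edgeR called 0 members in each generation, with 1, 0, 1 and 1 at an unadjusted p under 0.05 and 1, 0, 0 and 0 called by DESeq2 in P0, F1, F2 and F3. The background there was 2.14%, 1.98% and 6.43% of all genes in P0, F1 and F2, and 5.18% higher and 5.6% lower in F3. The single DESeq2 call was hsp-43 in P0 (log2 fold change 0.68, adjusted p = 0.0123; 0.0501 with edgeR). On the average of the 4 generations hsp-43 was called higher in hrde-1 hypoxia (25.9% of all genes called).

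**Figure D2:**
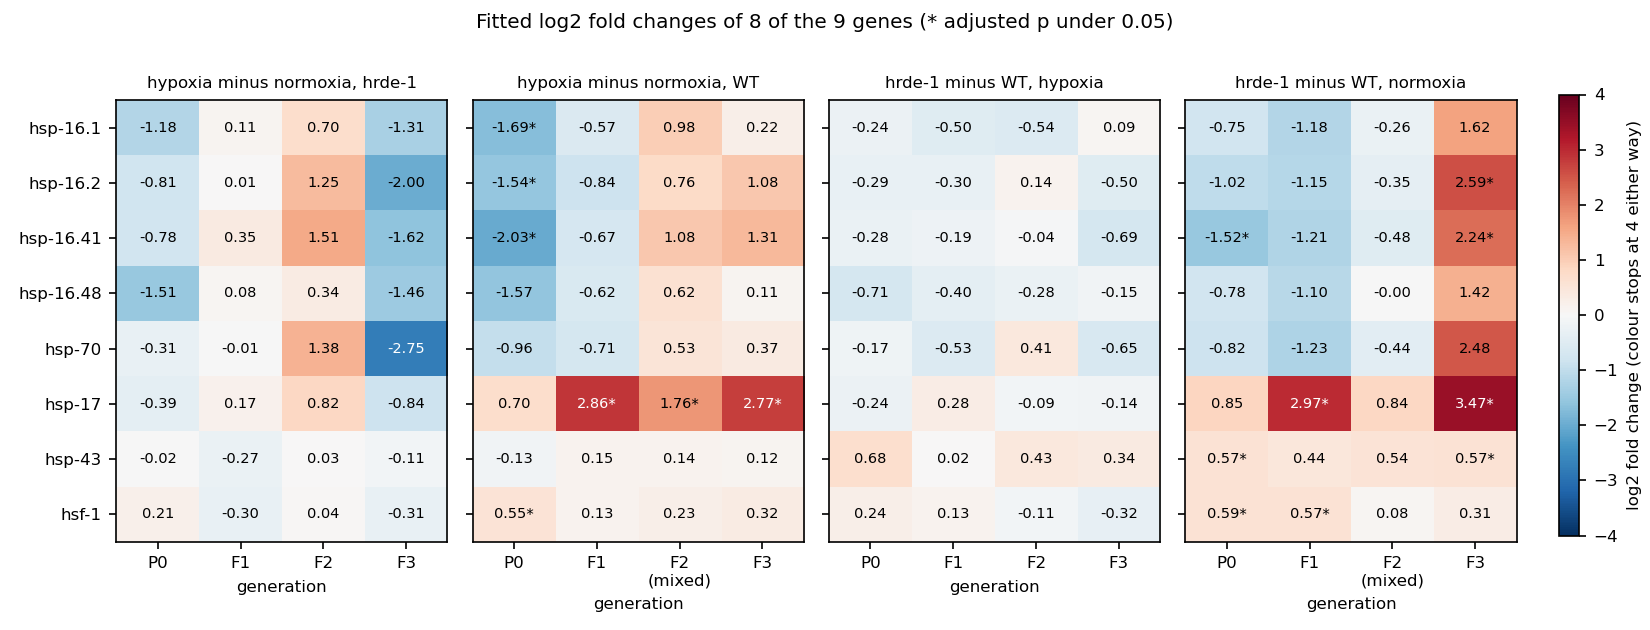
Heat map of fitted log2 fold changes (edgeR) of 8 of the 9 genes, without hsp-12.6, by generation, for hypoxia minus normoxia in hrde-1 and WT and for hrde-1 minus WT in hypoxia and normoxia; an asterisk marks an adjusted p under 0.05. Columns marked mixed use the F2 WT normoxia columns as deposited. The hsp-17 row holds the largest called values, 2.86 and 2.77 for hypoxia in F1 and F3 WT and 2.97 and 3.47 for hrde-1 against WT normoxia in F1 and F3.

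The hsp-16 genes encode small heat shock proteins that are strongly induced by heat. Of the 4, hsp-16.1, hsp-16.2 and hsp-16.41 were lower after hypoxia in P0 WT worms. hsp-16.41 had 48.1 and 52.6 CPM in P0 WT hypoxia libraries, against 178.6 and 231.8 CPM in P0 WT normoxia libraries. The groups were far apart, and both normoxia libraries lay above both hypoxia libraries. The log2 fold change was -2.03 ± 0.50 (SE; adjusted p = 0.00352), and the call held without any one of the 4 libraries.

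hsp-16.2 had 31.7 and 36.2 CPM in P0 WT hypoxia libraries, against 89.4 and 108.2 CPM in P0 WT normoxia libraries (log2 fold change -1.54 ± 0.56, adjusted p = 0.0332). hsp-16.1 had 23.5 and 28.6 CPM, against 73.5 and 94.6 CPM (-1.69 ± 0.56, adjusted p = 0.0216; with its copy hsp-16.11 added, -1.69, adjusted p = 0.018). Neither gene's groups overlapped. hsp-16.48 had 27.6 and 23.4 CPM, against 59.1 and 92.8 CPM, and missed the threshold (-1.57 ± 0.64, adjusted p = 0.0546). The hsp-16.2 call ended without any one library (adjusted p = 0.0652 and 0.142 without normoxia replicates 1 and 2, 0.175 and 0.124 without hypoxia replicates 1 and 2). The hsp-16.1 call ended without normoxia replicate 2 (adjusted p = 0.115), hypoxia replicate 1 (0.145) or hypoxia replicate 2 (0.0876). The oocyte, eggshell, cuticle and molting marker sums given above differed between the same libraries, and their part in these values was not tested.

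In P0 hrde-1, hsp-16.41 had 41.6 and 41.6 CPM in hypoxia libraries, against 79.8 and 62.9 CPM in normoxia libraries. These groups were also apart, but the difference did not pass the test (log2 fold change -0.78 ± 0.49, adjusted p = 0.354). The difference between the strains' hypoxia effects was 1.25 ± 0.69 (adjusted p = 0.358). Under normoxia, hsp-16.41 was lower in P0 hrde-1 than in P0 WT (-1.52 ± 0.49, adjusted p = 0.0308). That call ended without any one of the 4 libraries (adjusted p = 0.0524 and 0.196 without WT replicates 1 and 2, 0.122 and 0.125 without hrde-1 replicates 1 and 2).

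Group means of hsp-16.41 were higher in F1 than in P0 in each strain and treatment. In the hypoxia groups of both strains they were lower in F3 than in F2. In hrde-1 normoxia they rose in each generation, from 71.4 CPM in P0 to 231.3 CPM in F3, where replicate 1 lay far above replicate 2. No test compared single generations. In F1, hsp-16.41 had 186.3 and 273.5 CPM in hrde-1 hypoxia and 198.7 and 161.4 CPM in hrde-1 normoxia libraries. In F1 WT it had 339.9 and 185 CPM in hypoxia and 511.4 and 321 CPM in normoxia libraries. Hypoxia and normoxia libraries of F1 overlapped in both strains. In F2 it had 592.2 and 528.2 CPM in hrde-1 hypoxia, 116 and 276.9 CPM in hrde-1 normoxia, 575.6 and 578.2 CPM in WT hypoxia, and 317 and 230.2 CPM in the F2 WT normoxia columns as deposited (465.6 and 377.1 CPM as the remainder). All 4 F2 hypoxia libraries were above all F2 normoxia libraries, and neither strain's difference passed the test (adjusted p = 0.962 in hrde-1, 0.142 in WT as deposited).

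In F3, hsp-16.41 had 54.1 and 95.9 CPM in hrde-1 hypoxia and 374.5 and 88.1 CPM in hrde-1 normoxia libraries. In F3 WT it had 85.2 and 157 CPM in hypoxia and 43.4 and 54.4 CPM in normoxia libraries. The WT groups did not overlap, but the difference did not pass the test (1.31 ± 0.49, adjusted p = 0.105). Of the hrde-1 normoxia libraries, replicate 1 was the highest of the F3 libraries and replicate 2 lay among the others. For hrde-1 against WT under F3 normoxia, the log2 fold change was 2.24 ± 0.50 for hsp-16.41 (adjusted p = 0.00667) and 2.59 ± 0.58 for hsp-16.2 (adjusted p = 0.00668). Without hrde-1 replicate 1 these were 0.85 and 0.74 (adjusted p = 0.234 and 0.348). The calls also ended without WT replicate 1 (adjusted p = 0.0686 for hsp-16.41 and 0.0762 for hsp-16.2), and that of hsp-16.41 without WT replicate 2 (0.0534).

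Summed over the 6 hsp-16 genes with the copies, group means followed the same course as those of hsp-16.41. The sums were 170.7 and 174.4 CPM in P0 hrde-1 hypoxia, 366.4 and 358.5 CPM in P0 hrde-1 normoxia, 238.9 and 245 CPM in P0 WT hypoxia, and 685.4 and 914.2 CPM in P0 WT normoxia libraries. In F1 they were 777.1 and 837 CPM in hrde-1 hypoxia, 900.2 and 622.1 CPM in hrde-1 normoxia, 1198.2 and 835.4 CPM in WT hypoxia, and 2044.8 and 1461.8 CPM in WT normoxia libraries. F2 hypoxia libraries of both strains were between 1663.9 and 1939.7 CPM. In F3 the sums were 208.7 to 510.8 CPM in 7 of 8 libraries, and F3 hrde-1 normoxia replicate 1 stood apart at 1528.7 CPM. F3 WT normoxia libraries (208.7 and 281.5 CPM) lay below those of P0. The F3 hypoxia libraries of both strains (290.5 to 510.8 CPM) lay above the P0 hypoxia libraries.

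Averaged over F1 to F3, the hypoxia groups of both strains had more hsp-16 RNA than in P0. For hsp-16.41 the log2 difference of later generations against P0 was 2.36 ± 0.46 in hrde-1 hypoxia (adjusted p = 0.00196) and 2.39 ± 0.46 in WT hypoxia (adjusted p = 0.00227). In hrde-1 normoxia it was 1.496 ± 0.431 (adjusted p = 0.0161), and in WT normoxia, over F1 and F3, it was -0.52 ± 0.41 (adjusted p = 0.309). These averages mix F1 and F2 with F3, where group means of hsp-16.41 were lower than in F2 in hrde-1 hypoxia and WT hypoxia. Tissue markers also differed between P0 and later libraries. Muscle marker sums were 5276 to 7789 CPM in P0 libraries, against 7822 to 19865 CPM in F1 to F3 libraries, and their part was not tested. Members called in these comparisons numbered 7 in hrde-1 hypoxia (18.4% of all genes), 5 in hrde-1 normoxia (24.3%), 5 in WT hypoxia (9.11%) and 1 in WT normoxia (44.3%). The single WT normoxia call, hsp-17, held without any one library, and the other 3 counts rest on P0. Without P0 replicate 1 or 2 the members called were 2 and 0 in hrde-1 hypoxia, 3 and 0 in hrde-1 normoxia, and 0 and 0 in WT hypoxia, where leaving out any one of 5 later libraries (both of F1, both of F2, F3 replicate 2) left 3.

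The effect of hypoxia on hsp-16.41 in WT differed between P0 and the average of F1 and F3 by -2.35 ± 0.60 on the log2 scale, as P0 minus the average (adjusted p = 0.0124; 2 members, hsp-16.41 and hsp-17, called against 15.3% of all genes). The effect was 0.32 on the average of F1 and F3, against -2.03 in P0. The call ended without P0 WT normoxia replicate 2 (-2.19, adjusted p = 0.0679), P0 WT hypoxia replicate 1 (-2.21, adjusted p = 0.0748) or P0 WT hypoxia replicate 2 (-2.34, adjusted p = 0.059). In hrde-1 the same difference was -0.86 ± 0.56 for hsp-16.41 (adjusted p = 0.377), and edgeR called 0 members there (2 at an unadjusted p under 0.05, 1 by DESeq2, 1.71% of all genes).

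hsp-70 encodes a cytosolic HSP70 chaperone that heat induces. As for the hsp-16 genes, its group means were higher in F1 than in P0, and in hypoxia groups lower in F3 than in F2. It had 39.2 and 48.8 CPM in P0 hrde-1 hypoxia, 58.0 and 50.9 CPM in P0 hrde-1 normoxia, 53.0 and 45.9 CPM in P0 WT hypoxia, and 92.8 and 99.4 CPM in P0 WT normoxia libraries. The P0 WT groups did not overlap, and the difference missed the threshold (log2 fold change -0.96 ± 0.77, adjusted p = 0.323).

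In F1, hsp-70 had 332.9 and 307.9 CPM in hrde-1 hypoxia, 396 and 250.7 CPM in hrde-1 normoxia, 545.6 and 382.7 CPM in WT hypoxia, and 909.1 and 604.3 CPM in WT normoxia libraries. Every F1 library was higher than every P0 library. In F2 it had 603.9 and 606.4 CPM in hrde-1 hypoxia, against 40.7 and 426.1 CPM in hrde-1 normoxia libraries. F2 WT hypoxia libraries had 311.4 and 597.6 CPM, against 341 and 289.6 CPM in the WT normoxia columns as deposited. The 2 F2 hrde-1 normoxia libraries were an order of magnitude apart.

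In F3, hsp-70 had 35.03 and 49.8 CPM in hrde-1 hypoxia, 525.5 and 46.1 CPM in hrde-1 normoxia, 54.1 and 79.0 CPM in WT hypoxia, and 40.0 and 62.5 CPM in WT normoxia libraries. All but F3 hrde-1 normoxia replicate 1 lay between 35.03 and 79.0 CPM, close to the P0 range of 39.2 to 99.4 CPM. The difference between F3 hrde-1 and WT under normoxia did not pass the test (2.48 ± 0.80, adjusted p = 0.057). For F3 hypoxia against normoxia in hrde-1 it was -2.75 ± 0.81 with both libraries (adjusted p = 0.74), and against F3 hrde-1 normoxia replicate 1 alone, the outlying library, it was -3.64 (adjusted p = 0.00327, the lone library being assumed to vary like the other groups).

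Averaged over F1 to F3, hsp-70 was higher than in P0 in hrde-1 hypoxia (2.20 ± 0.71, adjusted p = 0.0375), hrde-1 normoxia (2.35 ± 0.72, adjusted p = 0.022) and WT hypoxia (2.29 ± 0.72, adjusted p = 0.0499). In WT normoxia the difference was 1.04 ± 0.68 (adjusted p = 0.228). The muscle marker sums given above differed between P0 and later libraries, and their part in these differences was not tested. The WT hypoxia call ended without any one of its 8 libraries (adjusted p between 0.0544 and 0.331) with the replicate number as a block (0.06), with DESeq2's size factors (0.0505) and with the 5 CPM filter (0.0503). The hrde-1 hypoxia call ended without any one library other than F3 replicate 1 (adjusted p between 0.0507 and 0.231), and the hrde-1 normoxia call without P0 replicate 1 (0.07) or 2 (0.196).

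The spread between the 2 libraries of a group differed among these genes. The biological coefficient of variation in the fit was highest for hsp-12.6, at 0.680, which 95.2% of tested genes lay below. It was 0.505 for hsp-70, which 86.2% of tested genes lay below, and 0.331 to 0.425 for the 4 hsp-16 genes. It was 0.275 for hsp-17, 0.134 for hsp-43 and 0.110 for hsf-1, against a median of 0.245 over all tested genes. In F2 hrde-1 normoxia, replicate 2 was higher than replicate 1 by 3.37 (log2 CPM) for hsp-70, 2.32 for hsp-16.48, 2.13 for hsp-16.1, 1.92 for hsp-16.2, 1.25 for hsp-16.41 and 1.03 for hsp-17. Over all tested genes the median size of this gap was 0.437, and 95% of genes lay under 1.59.

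In F3 hrde-1 normoxia the gap had the opposite sign, and replicate 2 minus replicate 1 was -3.50 for hsp-70, -2.75 for hsp-16.48, -2.62 for hsp-16.2, -2.49 for hsp-16.1, -2.08 for hsp-16.41 and -1.20 for hsp-17. The median size over all genes was 0.554, and 95% of genes lay under 2.11. hsf-1 differed by 0.10 in F2 and -0.38 in F3, and hsp-43 by 0.42 and -0.11. Over the 15 groups, the library with more hsp-70 also had more hsp-16.1 in 13, more hsp-16.2 and hsp-16.41 in 12, more hsp-16.48 and hsp-43 in 11, more hsp-17 in 10 and more hsf-1 in 8.

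Tissue markers differed between the same libraries. In F3 hrde-1 normoxia, replicates 1 and 2 had cuticle and molting sums of 178.6 and 1262.4 CPM, muscle sums of 12226 and 19590 CPM and oocyte and eggshell sums of 20364 and 12666 CPM. In F2 hrde-1 normoxia, where replicate 2 had more hsp-70, replicates 1 and 2 had muscle sums of 16681 and 9875 CPM and oocyte and eggshell sums of 13508 and 19065 CPM. In both groups the library with more hsp-70 had more oocyte and eggshell RNA and less muscle RNA. Other groups went both ways. The library with more hsp-70 had less oocyte and eggshell RNA in the F1 and F3 WT groups and F2 WT hypoxia. It had more in P0 WT hypoxia and both P0 hrde-1 groups. Muscle RNA was lower in that library in F1 WT normoxia and higher in F3 WT hypoxia. The part of tissue makeup in the gaps between libraries was not tested.

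**Figure D3:**
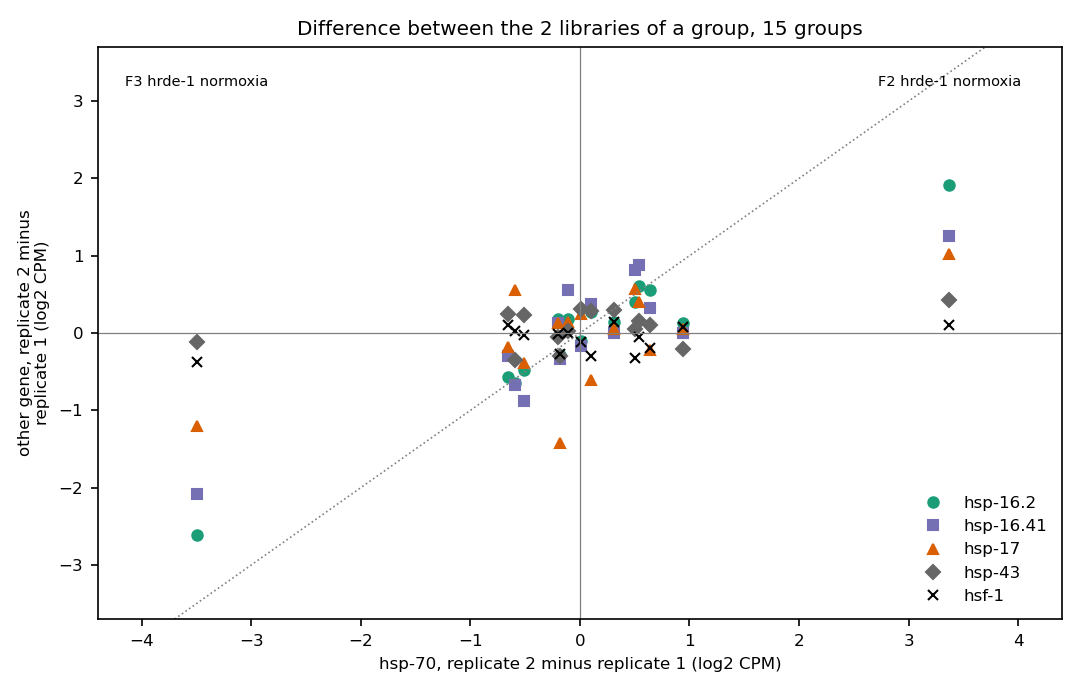
Replicate 2 minus replicate 1 in log2 CPM for hsp-16.2, hsp-16.41, hsp-17, hsp-43 and hsf-1 (vertical axis) against the same difference for hsp-70 (horizontal axis), 1 symbol per gene in each of 15 groups, with a dotted line of equal values. The 2 outlying columns of symbols are F2 hrde-1 normoxia at 3.37 and F3 hrde-1 normoxia at -3.50 for hsp-70, where the hsp-16 genes and hsp-17 lie on the same side of 0 as hsp-70.

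hsp-17 encodes a small heat shock protein outside the hsp-16 family. Over 15 group means, its Pearson's r with the 4 hsp-16 genes was 0.360 to 0.488. The F2 hypoxia groups of both strains were the highest for hsp-17, as for hsp-16.41. In WT it was higher in the hypoxia groups of F1 and F3. It had 115 and 87.7 CPM in F1 WT hypoxia libraries, against 11.2 and 16.7 CPM in F1 WT normoxia libraries (log2 fold change 2.86 ± 0.43, adjusted p = 0.000158). It had 63.7 and 83.9 CPM in F3 WT hypoxia libraries, against 11.7 and 9.94 CPM in F3 WT normoxia libraries (2.77 ± 0.43, adjusted p = 0.000651). The groups were well apart in both generations, and both calls held without any one of the 4 libraries.

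In P0 WT, hsp-17 had 52.5 and 57.4 CPM in hypoxia libraries, against 40.9 and 26.7 CPM in normoxia libraries (0.70 ± 0.40, adjusted p = 0.158). In F2 it had 235.1 and 244.4 CPM in WT hypoxia libraries, against 82.2 and 59.8 CPM in the WT normoxia columns as deposited (1.76 ± 0.40, adjusted p = 0.0136). As the remainder, F2 WT normoxia had 230.3 and 175.3 CPM, and the difference was 0.24 ± 0.38 (adjusted p = 1). The F2 call also ended without any one of its 4 libraries (adjusted p between 0.0585 and 0.154).

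In hrde-1, hsp-17 had 45.4 and 47.3 CPM in P0 hypoxia libraries, against 88.6 and 32.7 CPM in P0 normoxia libraries. In F1 it had 117.3 and 129.5 CPM, against 116.5 and 103.1 CPM, in F2 205.7 and 243.6 CPM, against 83.6 and 170.9 CPM, and in F3 53.98 and 80.1 CPM, against 167 and 72.4 CPM. None of these 4 differences passed the test (adjusted p between 0.587 and 0.962). The low levels of 9.94 to 16.7 CPM occurred in the F1 and F3 WT normoxia libraries and in no other library.

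Under normoxia hsp-17 was higher in hrde-1 than in WT in F1 (2.97 ± 0.43, adjusted p = 6.16e-05) and F3 (3.47 ± 0.44, adjusted p = 1.80e-05), and on the average of P0, F1 and F3 by 2.43 ± 0.24 (adjusted p = 2.09e-07). Both generations' calls held without any one library. That of F3 ended when the 2 groups were fitted alone (3.52, adjusted p = 0.0713). In P0 the difference was 0.85 ± 0.40 (adjusted p = 0.1245, edgeR) and the groups overlapped, so F1 and F3 carry most of the average. In F2 the strain difference under normoxia was 0.84 (adjusted p = 0.243) against the WT columns as deposited and -0.68 (adjusted p = 0.313) against the remainder. The oocyte, eggshell and vitellogenin sums of these libraries are given above. Under hypoxia, the strains differed by 0.02 ± 0.23 on the average of F1 to F3 (adjusted p = 0.976).

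The effect of hypoxia on hsp-17 differed between the strains, by -2.69 ± 0.57 in F1 (adjusted p = 0.00742) and by -3.61 ± 0.58 in F3 (adjusted p = 0.00379), each as hrde-1 minus WT. In F2 the difference was -0.94 (adjusted p = 0.455) with the WT normoxia columns as deposited and 0.58 (adjusted p = 1) with the remainder. hsp-17 was the only member called in these tests with edgeR, and 3.92% and 0.2% of all genes were called lower. In P0 edgeR and DESeq2 called 0 members, with 0 at an unadjusted p under 0.05 and 0.328% of all genes called. Without F1 WT normoxia replicate 1 the F1 value was -2.44 (adjusted p = 0.0554), and without F3 WT normoxia replicate 2 the F3 value was -3.54 (adjusted p = 0.0624). For F3 DESeq2 called 4 members, adding hsp-16.2 (-3.06, adjusted p = 0.017), hsp-16.41 (-2.91, adjusted p = 0.00528) and hsf-1 (-0.63, adjusted p = 0.0431). Without F3 hrde-1 normoxia replicate 2, which leaves the outlying library alone in its group, edgeR called 7 members lower, and 13.9% of all genes.

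The hypoxia effect on hsp-17 in WT also differed between P0 and the average of F1 and F3, by -2.11 ± 0.49 (adjusted p = 0.00756). Without P0 WT hypoxia replicate 1 this was -1.98 (adjusted p = 0.0541). Against P0, hsp-17 was lower in later WT normoxia libraries (-1.46 ± 0.34, adjusted p = 0.0018, in each of 6 fits without any one library). It was higher in later hrde-1 hypoxia libraries (1.41 ± 0.35, adjusted p = 0.00935), where the call ended without P0 replicate 1 (0.0978) or 2 (0.108). In later hrde-1 normoxia (0.97 ± 0.34, adjusted p = 0.0426) and later WT hypoxia libraries (1.14 ± 0.34, adjusted p = 0.0393) the calls ended without any one of 5 and of 7 of the 8 libraries. The most extreme of these fits left out P0 hrde-1 normoxia replicate 2 (0.45, adjusted p = 0.541) and P0 WT hypoxia replicate 1 (1.08, adjusted p = 0.309). Between P0 and later libraries the muscle marker sums and the F52E1.14 levels given above differed too, and their part was not tested. Oocyte and eggshell sums in the F1 and F3 WT hypoxia libraries were 15960 to 17624 CPM, against 10940 to 13602 CPM in the WT normoxia libraries of those generations, where hsp-17 was low, and the part of tissue makeup was not tested.

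hsp-12.6 encodes a short small heat shock protein and is a known target of the transcription factor DAF-16. Its counts lay almost wholly in WT normoxia libraries. In hrde-1 hypoxia libraries the estimated counts were 1 and 0, 1 and 1, 2 and 4, and 2 and 1 from P0 to F3. In hrde-1 normoxia they were 0 and 23, 0 and 0, 0 and 0, and 1 and 2, so a single P0 library held nearly all. Tissue markers differed between these 2 P0 libraries. Replicates 1 and 2 had neuron sums of 431 and 614 CPM and cuticle and molting sums of 534 and 1234 CPM. Their oocyte and eggshell sums were 17342 and 10439 CPM, and the part of tissue makeup was not tested. WT hypoxia libraries had 1 and 2 in P0, 1 and 0 in F1, 0 and 0 in F2, and 0 and 0 in F3, against 64 and 131 in P0, 26 and 24 in F1, and 10 and 30 in F3 WT normoxia libraries. The F2 WT normoxia columns had 12 and 18 as deposited and 0 and 0 as the remainder.

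In WT, hsp-12.6 was lower in hypoxia than in normoxia by 48.2-fold in P0 (95% counting interval 16.3 to 236) and by 46.7-fold in F1 (8.01 to 1882), and at least 13.1-fold lower in F3, taking a group without counts to hold up to 3. Intervals and floors cover counting error only. The WT groups did not overlap in any of these generations.

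Under normoxia, hsp-12.6 was lower in hrde-1 than in WT, at least 14.2-fold in F1, 6.55-fold in P0 and 12.9-fold in F3 (95% counting interval 4.11 to 65.2). Calls of hsp-12.6 are only a description, and the P0 and F3 differences were not among them. Neuron marker sums were 310 to 371 CPM in P0, F1 and F3 WT hypoxia libraries, against 424 to 644 CPM in WT normoxia libraries of these generations. In hrde-1 normoxia they were 431 to 614 CPM, against 620 to 644 CPM in WT normoxia in P0, 290 to 319 CPM, against 477 to 580 CPM in F1, and 399 to 482 CPM, against 424 to 556 CPM in F3, where the strains overlapped. The part of these markers was not tested. Under hypoxia both strains were at or near the floor.

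hsp-43 encodes a larger protein with a small heat shock protein domain, and its levels were the narrowest of the small heat shock genes. It was higher in hrde-1 than in WT. Under normoxia it had 48.6 and 39.5 CPM in P0 hrde-1 libraries, against 26.7 and 32.7 CPM in P0 WT libraries. In F1 it had 50.3 and 59.8 CPM in hrde-1, against 45.3 and 35.6 CPM in WT libraries, and in F3 44.4 and 41.04 CPM, against 27.7 and 29.8 CPM. The strains did not overlap in any of the 3 generations.

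The log2 fold change of hsp-43 was 0.57 ± 0.18 in P0 (adjusted p = 0.0257), 0.44 ± 0.18 in F1 (adjusted p = 0.0582) and 0.57 ± 0.18 in F3 (adjusted p = 0.0489). The average over these generations was 0.53 ± 0.10 (adjusted p = 0.000426), called in 12 of 12 fits without any one library. The single generations were less firm. The P0 call ended without WT replicate 1 (0.135), WT replicate 2 (0.0513) or hrde-1 replicate 1 (0.248), and the F3 call without WT replicate 1 (0.204), WT replicate 2 (0.135) or hrde-1 replicate 1 (0.129).

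Under hypoxia, hsp-43 had 38.8 and 48.0 CPM in P0 hrde-1 libraries, against 27.6 and 26.6 CPM in P0 WT libraries. In F1 it had 45.2 and 46.1 CPM, against 41.4 and 48.6 CPM, in F2 43.7 and 54.2 CPM, against 39.1 and 33.7 CPM, and in F3 38.9 and 40.2 CPM, against 29.4 and 32.9 CPM. The strains overlapped in F1 and in no other generation. The average over 4 generations was 0.37 ± 0.09 (adjusted p = 0.00495), and 0.26 (adjusted p = 0.0627) without P0. Hypoxia against normoxia gave no call for hsp-43 in any generation of either strain, with log2 fold changes between -0.27 and 0.15.

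hsf-1 encodes the transcription factor that activates the hsp-16 genes and hsp-70 after heat. Its level was higher in hypoxia in P0 WT, where it had 116.7 and 115.4 CPM in hypoxia libraries, against 87.4 and 70.8 CPM in normoxia libraries. The groups did not overlap, and the log2 fold change was 0.55 ± 0.14 (adjusted p = 0.0041). Without P0 WT normoxia replicate 2 it was 0.44 (adjusted p = 0.0815). In the same comparison hsp-16.1, hsp-16.2 and hsp-16.41 fell, so hsf-1 and these target genes moved in opposite directions. F1 WT had 88.5 and 86.7 CPM in hypoxia, against 79.2 and 80.8 CPM in normoxia libraries, and F3 WT had 101.4 and 97.9 CPM, against 85.0 and 74.4 CPM. Neither difference passed the test (adjusted p = 0.594 and 0.151). The groups did not overlap, which with so few libraries is only a description.

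Under normoxia, hsf-1 was higher in hrde-1 than in WT in P0 and F1. It had 130.2 and 107.8 CPM in P0 hrde-1 libraries, against 87.4 and 70.8 CPM in P0 WT libraries (0.59 ± 0.14, adjusted p = 0.00503). In F1 it had 114.1 and 122.8 CPM, against 79.2 and 80.8 CPM (0.57 ± 0.14, adjusted p = 0.00545), and in F3 111.6 and 86.0 CPM, against 85.0 and 74.4 CPM (0.31 ± 0.14, adjusted p = 0.187). The strains did not overlap in any of these generations. F2 hrde-1 libraries had 87.5 and 93.7 CPM, against 86.1 and 85.5 CPM in the WT columns as deposited (0.08, adjusted p = 0.83) and 95.4 and 108.2 CPM as the remainder (-0.17, adjusted p = 0.496). The average of P0, F1 and F3 was 0.49 ± 0.08 (adjusted p = 9.25e-05), called in 12 of 12 fits without any one library. The P0 call ended without WT replicate 2 (0.126) or hrde-1 replicate 1 (0.092), and the F1 call without hrde-1 replicate 2 (0.0526).

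Under hypoxia, the strains' hsf-1 levels differed by -0.01 ± 0.07 on the average of 4 generations (adjusted p = 0.913). hrde-1 hypoxia libraries had 130.4 and 144.3 CPM in P0, 96.1 and 95.9 CPM in F1, 96.9 and 89.3 CPM in F2, and 88.5 and 70.8 CPM in F3. P0 stood above all later generations. The difference of F1 to F3 against P0 was -0.62 ± 0.11 (adjusted p = 0.0011), and -0.55 (adjusted p = 0.0568) without P0 hrde-1 hypoxia replicate 2. In these groups the hsp-16 genes and hsp-70 were higher than in P0 on the average of F1 to F3, and those calls ended without P0 replicate 2. In F3 alone, mean hsp-70 was 42.4 CPM, against 43.99 CPM in P0. The muscle marker sums given above differed between P0 and later hrde-1 hypoxia libraries, and their part was not tested.

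Other chaperone genes were followed in 6 lists of 54 genes: other small heat shock proteins, other HSP70 and HSP110 genes, HSP90 and its co-chaperones, cytosolic J-domain proteins, the chaperonin TRiC, and regulators that bind or act on HSF-1. On the average of P0, F1 and F3 under normoxia, 27 of the 54 were higher and 9 lower in hrde-1 than in WT, against 19.3% and 23.1% of all genes. The median log2 fold change was 0.25 over the lists and -0.12 over all tested genes. Leaving out any one library gave 29 to 41 calls in place of 36. Under hypoxia, 3 were higher and 5 lower in hrde-1 on the average of 4 generations, against 15% and 10.9% of all genes.

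The constitutive chaperones were on the higher side in this average. All 8 TRiC subunits, which form the ring that folds actin and tubulin, were higher in hrde-1 (median log2 fold change 0.40), with cct-8 at 0.69 ± 0.10 (adjusted p = 1.35e-05) and cct-2 at 0.59 ± 0.10 (adjusted p = 0.000105). Of 12 genes of HSP90 and its co-chaperones, 9 were higher (median 0.33), among them hip-1 (0.95 ± 0.13, adjusted p = 1.20e-05), the kinase co-chaperone cdc-37 (0.68 ± 0.09, adjusted p = 1.20e-05) and the p23 co-chaperone daf-41 (0.62 ± 0.10, adjusted p = 4.80e-05). hsp-1, the constitutive HSP70 gene, was higher by 0.76 ± 0.10 (adjusted p = 4.37e-06). Oocyte, eggshell and vitellogenin sums of the same libraries, given above, were also higher in hrde-1, and their part was not tested. The rise of hsf-1 was in the same comparison, while hsp-70 and the hsp-16 genes were not called there.

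Some members of the lists were lower in hrde-1. F44E5.4 (-1.77 ± 0.22, adjusted p = 3.56e-06) and F44E5.5 (-1.74 ± 0.27, adjusted p = 4.95e-05), which are near-identical HSP70 genes whose reads may be shared, were lower. So were the small heat shock genes hsp-12.3 (-2.29 ± 0.44, adjusted p = 0.000402), hsp-12.2 (-0.74 ± 0.22, adjusted p = 0.0115) and F08H9.3 (-5.04 ± 0.73, adjusted p = 3.60e-05). Among HSF-1 regulators, ddl-2 was higher (0.46 ± 0.13, adjusted p = 0.00608) and the histone gene hil-1 lower (-1.69 ± 0.33, adjusted p = 0.000484).

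For hypoxia against normoxia, 13 of the 54 were higher and 10 lower in P0 WT, 11 and 4 in F1 WT, and 6 and 3 in F3 WT. Of all genes, 19.1% and 22.8%, 5.34% and 8.54%, and 3.05% and 3.57% were called in these directions. In P0 hrde-1, 1 was higher and 3 were lower (1.38% and 4.46% of all genes). Of 12 genes of HSP90 and its co-chaperones, 2 were called higher in P0 WT, a share under that of all genes, 6 in F1 WT and 3 in F3 WT, with daf-41 at 0.68 ± 0.17 in F1 and 0.81 ± 0.17 in F3 (adjusted p = 0.00907 and 0.00667). These counts rest on single libraries. In P0 WT, 23 calls became 7 without normoxia replicate 2. In F1 WT, 15 became 3 without normoxia replicate 1, hypoxia replicate 1 or hypoxia replicate 2, and 6 without normoxia replicate 2. In F3 WT, 9 became 0 without normoxia replicate 2 or hypoxia replicate 2, and 2 without hypoxia replicate 1.

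**Figure D4:**
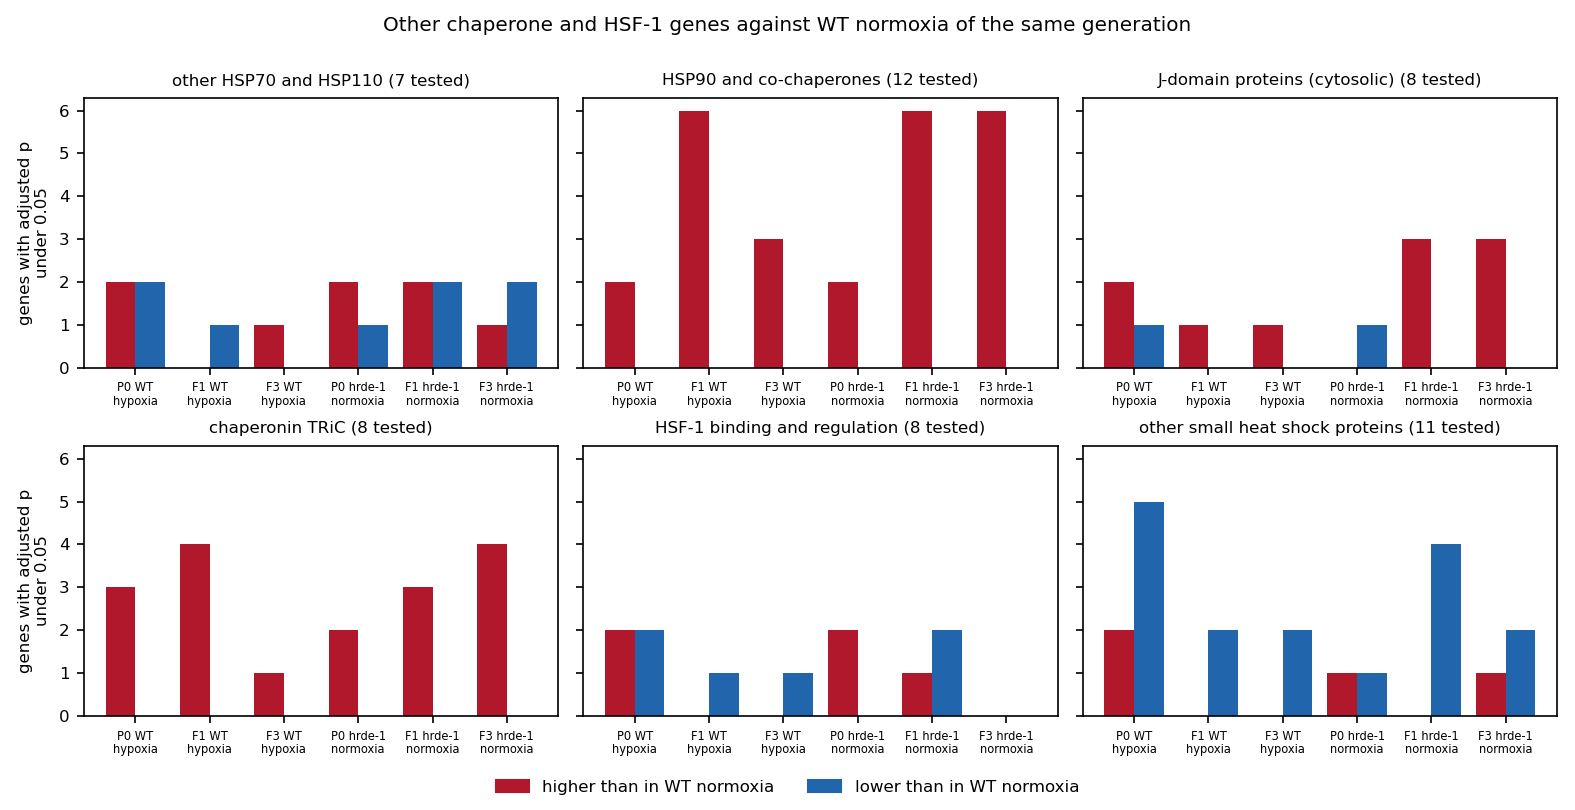
Number of genes of each of the 6 lists with an adjusted p under 0.05 (bars, red higher and blue lower) in 6 comparisons with WT normoxia of the same generation, WT hypoxia and hrde-1 normoxia in P0, F1 and F3. Of 12 genes of HSP90 and its co-chaperones, 2, 6 and 3 are higher in WT hypoxia of P0, F1 and F3, while other small heat shock genes include 5 lower ones in P0 WT hypoxia.

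Over the 15 group means, 12767 genes were searched for patterns like those of the members, by Pearson's r of log2 CPM. The groups share strains and generations, so r is a description. The 5 genes most like hsp-70 included hsp-16.2 (0.962), hsp-16.1 (0.944) and ttll-12 (0.939), and hsp-16.2 and hsp-16.41 had an r of 0.985. hsp-17 was most like gst-1 (0.984), a glutathione S-transferase gene, cdr-4 (0.961), a cadmium response gene, chp-1 (0.954), tbb-6 (0.945), a tubulin gene, and manf-1 (0.937), which encodes a secreted protein of the endoplasmic reticulum. hsp-12.6 was most like tag-196 (0.976), nhr-18 (0.974) and skr-1 (0.966). hsp-43 was most like C16C8.12 (0.905) and C38D4.10 (0.882). hsf-1 was most like rrf-1 (0.961), an RNA-directed RNA polymerase gene, fbxa-215 (0.960) and ced-7 (0.956).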

How the data were processed

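Per the labels' protocols, whole worm RNA (mirVana kit) was poly(A)-selected, and NEXTflex qRNA-Seq libraries were sequenced paired-end on a HiSeq4000. The submitters' processing notes name the tools RSEM, featureCounts, edgeR, Bowtie2 and cutadapt 2.5. For the build and the step that each tool served, nothing is given in the sources used here. Values are deposited as estimated counts per gene, which the authors did not normalize. Per the column names, each of the 32 columns belongs to 1 library, and totals ran from 9722580 to 16555982. Depth limits only hsp-12.6, whose counts are low. The 2 F2 WT normoxia columns were found to be means of 3 values, as described with the results.

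Rounding to whole numbers came first, since tests had been planned for raw counts. After filterByExpr, genes were tested in R 4.3.3 by quasi-likelihood with edgeR 4.0.16 (glmQLFit, glmQLFTest), with TMM factors, 1 mean per group over 30 libraries and 15 groups, and Benjamini-Hochberg adjustment over all 15536 tested genes at 0.05. Contrasts with F2 WT normoxia came from a fit of all 32 columns. Errors are standard errors, from the log2 fold change and F. Averages over generations weight generations equally, and WT normoxia averages leave out F2. Folds of hsp-12.6 use a floor of 3 counts over a group, with 95% intervals where a group had 1 to 3 counts. Annotation and exon lengths came from the Ensembl WBcel235 annotation, which holds 99.8% of the IDs. Likeness used log2(CPM + 0.5) over 15 group means and genes with a mean of at least 1 CPM. The test was checked on data simulated with less spread than the hsp-16 genes and hsp-70 had. For hypoxia against normoxia in P0 WT it recovered 23.7% of genes changed 2-fold and 85.7% of those changed 4-fold. Changes of 2-fold are thus often missed, and a gene without a call is not shown to be unchanged. Tables were made with Python 3.11.15 and pandas 2.3.3.

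The members and all gene lists were chosen with earlier results of these data known, and 6 of 161 list entries matched no gene. Named genes are all 9 members, some or all of the 5 genes most like a member, and up to 3 called genes per list and direction with the smallest p. Alternatives were DESeq2 1.42.0, its size factors, the replicate number as a block, no filter, at least 5 CPM in 2 libraries, all 32 columns, the remainder, fits of the 2 groups alone, fits without P0, sums over the hsp-16 copies, and leaving out each library in turn.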

Additional observations from a re-analysis of the deposited data

Results flagged for a closer look

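The effect of hypoxia on hsp-17 differed between hrde-1 and WT, by -2.69 on the log2 scale in F1 and by -3.61 in F3 (edgeR, test of the difference itself). In hrde-1 the effect was 0.17 in F1 and -0.84 in F3, against 2.86 and 2.77 in WT. In F2 the difference was -0.94 with the WT normoxia columns as deposited and 0.58 with the remainder, and neither passed the test.

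In WT, the effect of hypoxia differed between P0 and the average of F1 and F3, by -2.35 for hsp-16.41 and by -2.11 for hsp-17, each as P0 minus the average. For hsp-16.41 the effect was 0.32 on the later average, against -2.03 in P0, and for hsp-17 it was 2.81 on the later average, against 0.70 in P0. The WT hypoxia libraries of P0 differ from the P0 WT normoxia libraries in tissue markers too, as given above, and the part of these in the differences was not tested.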

How the results depend on the processing

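The hsp-17 calls (hypoxia in F1 and F3 WT, hrde-1 against WT normoxia in F1 and F3) and the strain averages of hsp-17, hsp-43 and hsf-1 under normoxia kept direction and call without any one library and with both scalings, both tools and the replicate block. The main fit did not pair libraries by replicate number. Over 14 compared pairs of groups, deviations correlated between -0.131 and 0.442, and 3 were above 0.1. These values do not show that no libraries are paired. With the replicate block, members called became 4 in place of 3 for hrde-1 against WT normoxia in P0 and 4 in place of 5 for later generations against P0 in WT hypoxia (hsp-70, 2.28, adjusted p = 0.06, also lost with DESeq2's size factors, 0.0505, and the 5 CPM filter, 0.0503), and no other count of members changed. Members called in fits of the 2 groups alone were, for hypoxia in WT, 8, 6, 7 and 4 from P0 to F3, for hypoxia in F1 hrde-1 1, for hrde-1 against WT normoxia 0, 9, 0 and 0, and under hypoxia 2 in P0, 2 in F1 and 1 in F2. With the 5 CPM filter they were 1 for WT hypoxia in F1, F2, F3 and the later average, 1 for hrde-1 against WT hypoxia in P0 and 0 for normoxia in F2. DESeq2 gave 1 for WT hypoxia in F3, 1 for hrde-1 against WT hypoxia in P0, 2 for normoxia in F2, 2 and 4 for the difference of hypoxia effects between strains in F1 and F3, and 1 for the difference of P0 from later generations in hrde-1. DESeq2's size factors gave 1 for hrde-1 against WT hypoxia in P0 and 2 for normoxia in F2. Without a filter the difference between strains in F3 had 3 and that of P0 from later generations in hrde-1 had 1. With all 32 columns as deposited, or with the remainder, hrde-1 against WT hypoxia in P0 had 1 and the difference between strains in F3 had 2. With the remainder, F2 had 0 for WT hypoxia and 0 for hrde-1 against WT normoxia, and hsp-12.6 had a log2 fold change of 0.00 in both, by construction, since its remainder is 0. Without P0, hrde-1 against WT hypoxia had 0 on the average. The hsp-12.6 difference of later generations against P0 in hrde-1 normoxia ran from -6.27 without P0 hrde-1 normoxia replicate 1 to 1.17 without replicate 2, which holds all its P0 counts.

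Leaving out each library in turn, members called ran over these ranges: hypoxia in WT 2 to 5 for P0, 1 to 2 for F1, 0 for F2 and 1 to 2 for F3; hypoxia in hrde-1 0 to 1 in P0, 0 to 7 in F3 and 0 to 1 on the later average; hrde-1 against WT normoxia 0 to 4 in P0, 1 to 3 in F1, 0 to 1 in F2, 1 to 8 in F3 and 4 to 7 on the average (7 without F3 hrde-1 normoxia replicate 1); the difference of hypoxia effects between strains 0 to 1 in P0, 0 to 1 in F1 and 0 to 7 in F3; P0 against later 0 to 2 in WT and 0 to 2 in hrde-1; later against P0 0 to 5 in WT hypoxia, 0 to 7 in hrde-1 hypoxia and 0 to 5 in hrde-1 normoxia. For the 6 chaperone lists, fits of the 2 groups alone called 23 in F1 and 19 in F3 for WT hypoxia, and 0, 36 and 0 in P0, F1 and F3 for hrde-1 against WT normoxia, where DESeq2 called 29 in F3. Their ranges without 1 library were 7 to 20 in P0, 3 to 6 in F1 and 0 to 6 in F3 for WT hypoxia, and 4 to 25 in P0, 9 to 18 in F1 and 4 to 29 in F3 for hrde-1 against WT normoxia. Of all calls, the higher share was 29.7% with DESeq2's size factors and 16.95% with TMM for WT hypoxia in F2, and 56.9% and 69.0% for the difference between strains in F1. The cause of these changes was not tested, beyond the smaller number of libraries.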
